A study of Drosophila melanogaster with 3 samples.

Results

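The translation initiation (eIF) and elongation (eEF) factor genes of *Drosophila melanogaster* are described here by the binding of Ets97D at their promoters. The members were chosen by symbol alone, as protein-coding genes whose name begins with eIF or eEF in the Release 6 annotation, which gave 52 of 13968 protein-coding genes on the chromosome arms. Of these, 34 were initiation factors, 6 were elongation factors, 10 were later-numbered paralogs of initiation factors called germline paralogs here, and the last were eEF1alpha2 and eEFSec. The germline group rests on names, since no expression was measured, and genes are not replicates of one another. Chromatin came from a transgenic line with GFP fused to the C terminus of Ets97D, as whole embryos of mixed sex collected 0 to 24 h after laying, and was precipitated with an antibody against GFP (ChIP-seq). The 3 biological replicates form 1 group of 1 line, and no other genotype or treatment was compared. A weak signal in whole embryos can come from few cells or from little binding in each, and these cannot be told apart.

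Ets97D is a DNA-binding protein of the ETS family, the fly relative of mammalian GABP alpha, which is known for genes of mitochondria and other housekeeping functions. Initiation factors bring the small ribosomal subunit and the initiator tRNA to the start codon of an mRNA. Elongation factors then deliver amino acids to the ribosome and move it along. Several initiation factors have later-numbered copies in flies, of which eIF4E3 and eIF4G2 are known for their roles in the male germ line.

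A promoter peak is a peak of the optimal set, the authors' list of 5595 reproducible peaks from all replicates, whose summit lies within 500 bp of a transcription start site (TSS) of a gene. The authors' signal of a region has no stated scale, so it is given as deposited for the optimal set. In each replicate it is divided by the median over the 5595 strongest regions listed for it and called the relative signal, so that 1 is the middle of those regions. The lists held 24391, 28843 and 29122 regions for replicates 1, 2 and 3, background included. Sequencing depth is unknown.

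Sequences upstream of the first annotated TSS of 9 members are shown to set promoters with strong peaks beside those with weaker or no peaks in the same families. Each run is the 100 bases before that TSS, read 5′ to 3′ on the strand of the gene from the Release 6 genome (dm6), and holds no annotated exon. Capitals mark TATCGATA, the element bound by the factor DREF, its inner word CGATA, known from the insulator protein BEAF-32, and GGTCACAC, the core promoter element Motif 1, on either strand. On the other strand these read TATCGATA, TATCG and GTGTGACC. The 9 do not show how common the words are, since all but eIF4E3 hold one. CGATA lay in this window at 25 of 52 members. eEF1alpha1, whose peak ranked 56, had none of the marked words there. However, the summit of that peak lay outside this window, 85 bp upstream of the third of 4 start sites. Within 50 bp of the summit it had GGTCACAC. The first 3 are elongation factors, of which eEF1gamma and eEF2 had promoter peaks and eEF1delta had none.
eEF1gamma: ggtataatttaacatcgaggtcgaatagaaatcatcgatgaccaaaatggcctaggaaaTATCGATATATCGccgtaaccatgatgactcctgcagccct
eEF2: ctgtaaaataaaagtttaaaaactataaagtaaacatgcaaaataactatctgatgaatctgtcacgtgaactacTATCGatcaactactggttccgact
eEF1delta: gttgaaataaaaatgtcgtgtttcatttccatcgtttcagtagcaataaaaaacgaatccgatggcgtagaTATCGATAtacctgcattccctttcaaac
The next are initiation factors with promoter peaks.
eIF4E1: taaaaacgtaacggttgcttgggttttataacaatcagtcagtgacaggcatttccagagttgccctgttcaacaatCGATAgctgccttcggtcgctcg
eIF4A: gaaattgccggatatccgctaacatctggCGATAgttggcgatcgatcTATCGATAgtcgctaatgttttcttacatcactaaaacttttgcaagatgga
eIF3f1: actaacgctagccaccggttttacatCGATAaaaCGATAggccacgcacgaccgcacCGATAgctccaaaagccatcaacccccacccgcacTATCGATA
eIF2alpha: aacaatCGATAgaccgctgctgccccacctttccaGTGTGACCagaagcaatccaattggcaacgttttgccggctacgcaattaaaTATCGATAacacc
The last are paralogs of the germline group, eIF4G2 with a promoter peak and eIF4E3 with no region in any list.
eIF4G2: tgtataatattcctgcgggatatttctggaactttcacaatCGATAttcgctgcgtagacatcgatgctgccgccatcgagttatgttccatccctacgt
eIF4E3: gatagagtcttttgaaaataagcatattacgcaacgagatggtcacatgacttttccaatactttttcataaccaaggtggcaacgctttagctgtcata

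These windows lie at 3R:29220072-29220171 (eEF1gamma), 2L:21682165-21682264 (eEF2), 2L:10232407-10232506 (eEF1delta), 3L:9402461-9402560 (eIF4E1), 2L:5981664-5981763 (eIF4A), 3R:4714183-4714282 (eIF3f1), X:16446994-16447093 (eIF2alpha), 3R:23819238-23819337 (eIF4G2) and 3L:8229124-8229223 (eIF4E3). The genes eEF1gamma, eEF1delta, eIF4A and eIF4E3 lie on the plus strand and the others on the minus strand. The word TATCGATA began 41 bases before the TSS of eEF1gamma (counting the base before the TSS as 1) and 29 bases before that of eEF1delta. A promoter with the word thus had one of the strongest peaks among the members, and another with the word had none.

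Of the 52 members, 33 (63.5%, Wilson 95% interval 49.9 to 75.2%) had a promoter peak, against 36.5% of all protein-coding genes. Among each replicate's own 5595 strongest regions the number was 32, 30 and 31, or 59.6% ± 1.92 (SD, n = 3). The same measure over all genes was 35.6%, 36.6% and 34.7%. Initiation factors had 26 of 34 (76.5%, 60.0 to 87.6%), elongation factors 4 of 6 (66.7%, 30.0 to 90.3%) and germline paralogs 2 of 10 (20%, 5.67 to 51.0%). The intervals of all members and of the initiation factors lie above the share of all genes, and those of the elongation factors and germline paralogs include it. In the replicates' own strongest regions the shares were 71.6% ± 3.40, 66.7% ± 0 and 16.7% ± 5.77 (SD, n = 3). Intervals cover counting error over genes only, and no test of these shares was made.

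**Figure D1:**
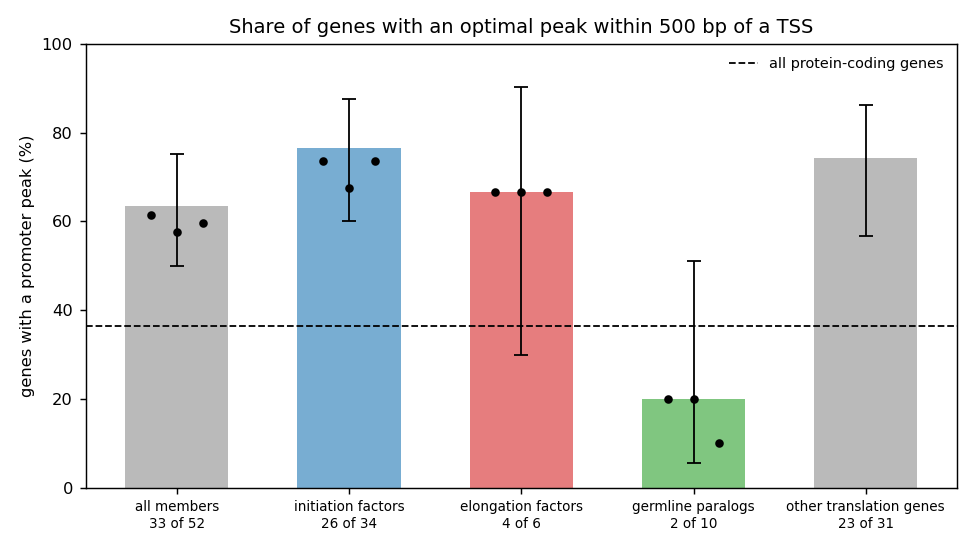
Share of genes with an optimal peak within 500 bp of a TSS, in percent, for all 52 members, the 34 initiation factors, the 6 elongation factors, the 10 germline paralogs and 31 other translation genes. Bars are shares in the optimal set, lines are Wilson 95% intervals, black points are the 3 replicates' own strongest regions (not drawn for the other translation genes), and the dashed line marks 36.5% of all protein-coding genes. Of the 5 bars, that of the germline paralogs (20%) is below the line and the others are above it.

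The elongation factors that carried a peak were among the strongest promoters of the genome. eEF1gamma (FBgn0029176), a subunit of the complex that recharges eEF1alpha with GTP, had an optimal signal of 5180, rank 21 of 5595, at 3R:29219692-29220545. Its relative signal was 33.4, 32.3 and 30.0 in replicates 1, 2 and 3 (31.9 ± 1.72, SD, n = 3). eEF5 (FBgn0285952), the hypusine-bearing factor also named eIF5A, had a signal of 4806, rank 25, at 2R:24057409-24058122. Its relative signal was 30.8, 28.8 and 28.2 (29.3 ± 1.34, SD, n = 3), lower than that of eEF1gamma in 3 of 3 replicates, although the ranges over replicates overlap. Both summits lay close to the first TSS, at -4 and -27 bp (negative is upstream).

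eEF1alpha1 (FBgn0284245), which delivers aminoacyl-tRNA to the ribosome, had a signal of 2784, rank 56, at 2R:11891751-11892355. The relative signal was 17.6, 17.1 and 16.2 in the 3 replicates (17.0 ± 0.703, SD, n = 3), below every replicate of eEF5. The summit was 85 bp upstream of the third of 4 annotated start sites. A second, weaker peak of 229 lay 98 bp upstream of the first start site, with relative signals of 1.66, 1.14 and 1.36. eEF2 (FBgn0000559), the factor that moves the ribosome by a codon, had a signal of 1243, rank 127, at 2L:21681870-21682411, with its summit at 18 bp. Its relative signal was 7.99, 7.97 and 6.88 (7.62 ± 0.634, SD, n = 3).

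The other subunits of the eEF1 exchange complex had no promoter peak. At eEF1delta (FBgn0032198) the strongest pooled region had a signal of 49.5, rank 9810 of 27625, and the relative signal was 0.448, 0.346 and 0.340. eEF1beta (FBgn0028737) had a region in replicate 2 only, with a relative signal of 0.311, and none in the pooled list. All 3 replicates of eEF1gamma were thus above all those listed for eEF1delta and eEF1beta. The nearest optimal summit was 667 bp from the TSS of eEF1beta, with a signal of 138, and 5197 bp from that of eEF1delta. With a window of 1000 bp in place of 500 bp, eEF1beta would count as having a peak.

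**Figure D2:**
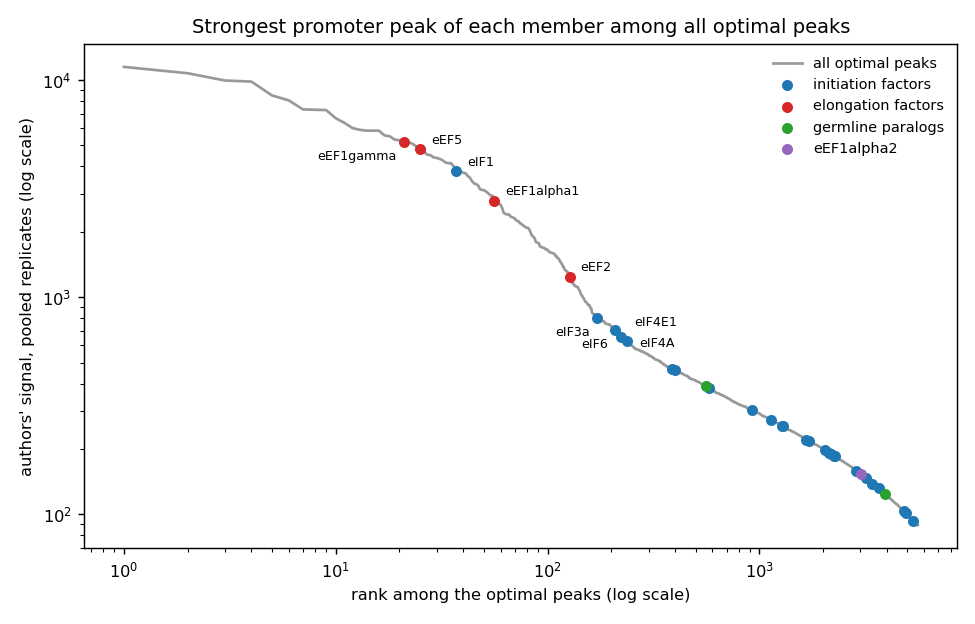
Authors' signal of each optimal peak (vertical, log scale, pooled replicates) against its rank among 5595 (horizontal, log scale), with the strongest promoter peak of the 33 members that had one in colour by group. The 4 elongation factors lie between ranks 21 and 127, with eIF1 (rank 37) among them, and the other initiation factors begin at rank 171.

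Ordered by the strongest pooled region, elongation factors took places 1, 2, 4 and 5 of the 52 members, and eIF1 the third. The median optimal signal was 3795 over the 4 elongation factors with a peak and 219 over the 26 initiation factors with one, a ratio of 17.3, against a median of 188 over all protein-coding genes with a peak. In replicates 1, 2 and 3 the ratio of median relative signals was 17.2, 16.5 and 15.5 (16.4 ± 0.840, SD, n = 3). The mean log2 ratio was 4.03 ± 0.0742, above 0 in 3 of 3 replicates (exact two-sided sign-flip permutation test over replicates, p = 0.25, the smallest that 3 replicates allow). These medians leave out members below the optimal set, so the same was computed over every member of both groups. eEF1alpha2 and eEFSec, with pooled signals of 153 and 29.4, were counted in neither group. The ratio with them among the elongation factors was not computed, but it would be lower than the one given next. The elongation median would then lie between the signals of eEF2 (1243) and eEF1alpha2 (153). With all 6 elongation and all 34 initiation factors, each at its strongest pooled region or, where none was listed, at the lowest signal of the pooled list, the medians were 2013 and 188 and the ratio 10.7. In the single replicates this ratio was 11.0, 11.2 and 9.73. The 6 elongation factors of this group thus split into 4 strong and 2 weak or unlisted promoters, with none between relative signals of 0.448 and 6.88. The split depends on the grouping, since eEF1alpha2, set apart from them, lay in this gap with 0.892, 0.808 and 0.953.

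The signal counted for eIF1 (FBgn0035423), which guards start codon choice on the small ribosomal subunit, lay at a neighbouring ribosomal protein gene. The summit of this peak, with a signal of 3804, was 327 bp upstream of the eIF1 TSS and 54 bp upstream of that of RpL28. The same region, 3L:3222672-3223580, held a second summit 114 bp upstream of eIF1 with a signal of 1013, rank 146. Relative signals were 24.4, 25.6 and 20.7 at the first summit and 6.84, 8.15 and 6.72 at the second. Taken at the second summit, eIF1 would lie close to eEF2 and above the other initiation factors in every replicate.

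The next initiation factors had signals of 626 to 806. eIF3a (FBgn0037249), a scaffold of the eIF3 complex that binds the small subunit, had 806, with relative signals of 5.17, 5.10 and 4.27 (4.85 ± 0.498, SD, n = 3). Its summit, at -46 bp, was nearer to the start of CG1074. eIF6 (FBgn0034915), which keeps the large subunit from joining too early, had 709, with relative signals of 4.41, 3.81 and 4.79 (4.33 ± 0.494). eIF4E1 (FBgn0015218), the cap-binding protein, had 658, with 4.08, 4.11 and 3.86 (4.01 ± 0.138), and its peak lay at the first of 4 start sites. The RNA helicase eIF4A (FBgn0001942) had 626 and a relative signal of 3.77 ± 0.244. The range of each of these factors over the replicates overlaps with that of the next. Within replicates eIF4E1 was above eIF4A in 3 of 3, and eIF3a was above both in 3 of 3, while the order of eIF6 against eIF3a and eIF4E1 differed between replicates.

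Subunits of the same complex differed widely. Of the 13 main eIF3 subunits, 10 had a promoter peak, led by eIF3a, eIF3h (460) and eIF3c (382), and the lowest was eIF3l with 103, whose summit was 335 bp upstream and nearer to Nrx-IV. Between them lay eIF3f1 (272), eIF3d1 (256), eIF3k (198), eIF3b (191), eIF3j (185) and eIF3m (147). eIF3e, eIF3g1 and eIF3i had none, and eIF3g1 had no region within 500 bp in any of the lists. Of the 6 main eIF4 factors, 5 had a peak, including the translational repressor eIF4EHP (301), eIF4H1 (218) and the scaffold eIF4G1 (139) on chromosome 4. eIF4B, a helper of the helicase, had none, and its nearest optimal summit was 154423 bp away.

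**Figure D3:**
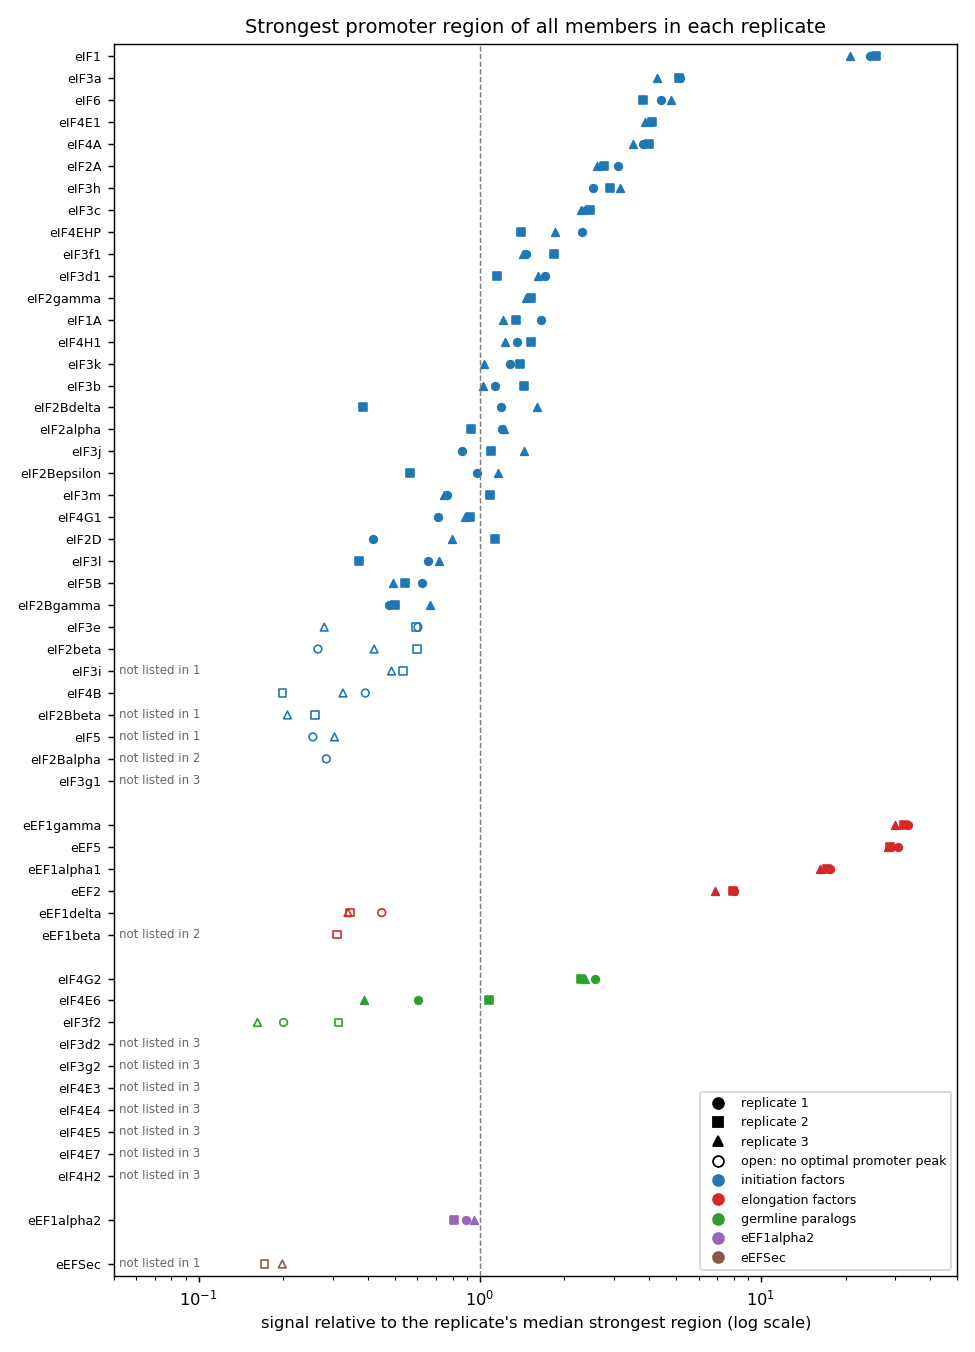
Signal of the strongest region within 500 bp of a TSS for all 52 members (rows, by group), as the relative signal on a log scale (the dashed line marks 1), with a symbol for each replicate. Filled symbols are members with an optimal promoter peak and open symbols those without, and a count is given where a replicate lists no region. The 4 strong elongation factors lie between 6.88 and 33.4, and 7 germline paralogs are listed in no replicate.

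Of the subunits of eIF2, which brings the initiator tRNA, eIF2gamma had a signal of 255 at a start site it shares with Su(var)3-9, which encodes a histone methyltransferase. eIF2alpha, the subunit whose phosphorylation halts initiation, had 186, and eIF2beta had none, its pooled region of 75.1 lying below the 89.1 of the weakest optimal peak. Of the 5 subunits of eIF2B, which reloads eIF2 with GTP, eIF2Bdelta had 190, eIF2Bepsilon 159 and eIF2Bgamma 93.6, and eIF2Balpha and eIF2Bbeta had none. The summit counted for eIF2Bdelta was 70 bp from its TSS but 12 bp from that of roh. That counted for eIF2Bepsilon was 101 bp from its TSS but 6 bp from that of Ocrl. Among the replicates' own strongest regions, 2, 0 and 3 eIF2B genes were found in replicates 1, 2 and 3. eIF2Bdelta had relative signals of 1.19, 0.385 and 1.60, and eIF2Bepsilon 0.980, 0.564 and 1.16, so that replicate 2 was the lowest at both. Of the remaining factors eIF2A had 465, eIF1A 221, eIF2D 132 and eIF5B 101, and eIF5, which triggers GTP hydrolysis by eIF2, had none.

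The members nearest to the edge of the optimal set were eIF2Bgamma inside it, with 93.6, and eIF3e outside it, with a pooled signal of 84.7 at rank 5880. eIF3e was nevertheless within the strongest regions of replicates 1 and 2, with relative signals of 0.603, 0.592 and 0.280. Of the 33 members with a peak, 26 (78.8%) had a strongest-region summit of all 3 replicates within 150 bp, against 79.5% of all 5097 genes with a peak. The 7 that did not were eIF2Bdelta, eIF2Bepsilon, eIF2Bgamma, eIF2D, eIF3l, eIF5B and eIF4E6. With the replicates' full lists, all 33 had a region in each. The highest replicate was 1.09 to 1.16 times the lowest at the 4 elongation factors with a peak, and 1.05 to 4.15 times (median 1.31) at the 26 initiation factors.

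Most germline paralogs had no region at all. Counting weaker ones too, 42 of 52 members had a region of the pooled list within 500 bp, against 59% of all protein-coding genes, and any region in replicates 1, 2 and 3 for 55.2%, 58.4% and 58.7% of all genes. eIF3d2, eIF3g2, eIF4E3, eIF4E4, eIF4E5, eIF4E7 and eIF4H2 were listed within 500 bp of a TSS in none of the 3 replicates nor in the pooled list. The main copies eIF3d1, eIF4E1 and eIF4H1 had relative signals of 1.49 ± 0.299, 4.01 ± 0.138 and 1.37 ± 0.148 (SD, n = 3), while eIF3g1, like eIF3g2, was unlisted. eIF3f2 had 0.200, 0.314 and 0.162 in the 3 replicates, against 1.46, 1.83 and 1.43 at eIF3f1, with no overlap. How far reads could be placed uniquely at these copies was not tested.

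eIF4G2 (FBgn0260634) was the exception among them. Its signal was 389, at 3R:23819173-23819446, and its relative signal of 2.57, 2.28 and 2.37 was above that of the main copy eIF4G1, 0.708, 0.920 and 0.889, in 3 of 3 replicates. The ratio of eIF4G1 to eIF4G2 was 0.351 ± 0.0669 (SD, n = 3), and the groups did not overlap. The summit, at -84 bp, was also 84 bp from a start site of CG33111, so that the genes cannot be told apart by this peak. eIF4E6 had a signal of 124 at -43 bp, with its summit nearer to CG1951, and relative signals of 0.604, 1.08 and 0.386, all below those of eIF4E1. eEF1alpha2, a second gene for eEF1alpha, had 153 and relative signals of 0.892, 0.808 and 0.953, against 16.2 or more at eEF1alpha1, a ratio of 19.3 ± 2.12 (SD, n = 3). eEFSec, named for the elongation factor of selenocysteine, had no peak, and a pooled region of 29.4.

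Summits lay mostly just upstream of the start site. Of the 33 members with a peak, 26 (78.8%) had the summit upstream, with a median position of -43 bp, against 88.1% and -75 bp over all genes with a peak. The members with the summit downstream were eEF2, eEF1alpha2, eIF2alpha, eIF2D, eIF2Bgamma, eIF3b and eIF3j, by 5 to 42 bp. In 13 of 33 members (39.4%) the TSS of another gene lay within 500 bp of the summit, against 58.3% of all genes with a peak, and none of the 13 were elongation factors.

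**Figure D4:**
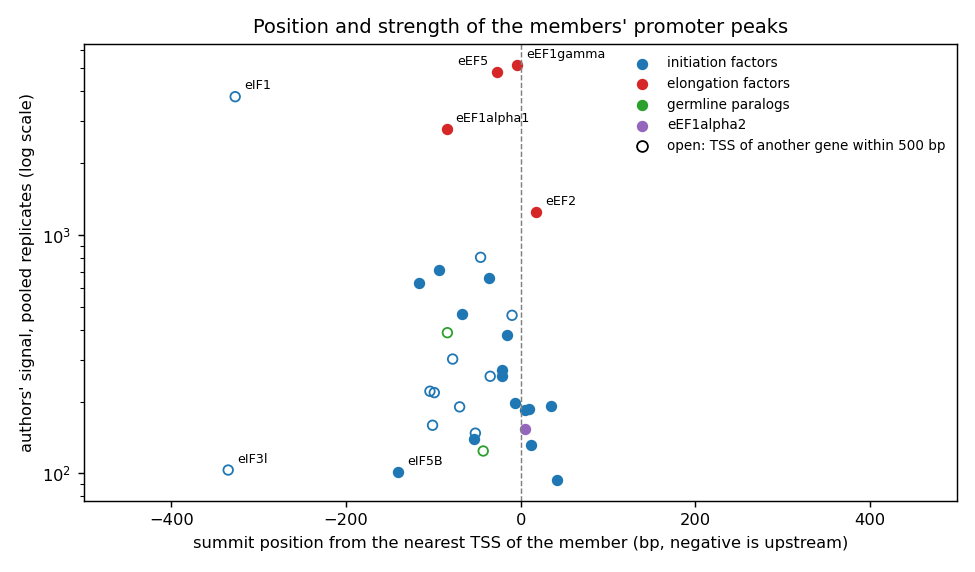
Authors' signal of the strongest promoter peak (vertical, log scale) against the position of its summit from the nearest TSS of the member (horizontal, bp, negative is upstream) for the 33 members with a peak. Open symbols have the TSS of another gene within 500 bp of the summit; eIF1 (-327 bp) and eIF3l (-335 bp) stand far upstream, and the elongation factors lie between -85 and 18 bp with no such neighbour.

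The ETS word of the GABP type was at about the same low share of member summits as of all promoter peaks. CCGGAAG was within 50 bp of none of the 33 member summits (0.801% of all 4118 promoter peaks), and its shorter form CCGGAA of 1, that of eEF1gamma (3.03%, against 3.62%). Within 100 bp, CCGGAA was at 3 (9.09%, against 6.36%). TATCGATA was at 8 (24.2%, against 9.91% of all promoter peaks), those of eEF1gamma, eIF1, eIF3a, eIF2A, eIF3f1, eIF2gamma and eIF2alpha. The last of these 8 was eIF4E6. Of the 8, the summits of eIF1, eIF3a and eIF4E6 lay nearer to the TSS of another gene. CGATA, which each TATCGATA contains, was at 17 (51.5%, against 37.7%), including eEF1gamma, eEF5 and eEF2. GGTCACAC was at 4 (12.1%, against 7.72%), those of eEF1alpha1, eIF2A, eIF3k and eIF2Bepsilon, but within 25 bp it was at 1 (3.03%, against 3.91%). CAGCTG, the Ohler 5 E-box, was at 1 (3.03%, against 9.08%). The pyrimidine word CTCTTTC was also at 1, that of eEF2 (3.03%, against 1.55%), and within 25 bp at none (against 0.777%). All words were sought on both strands, and no test was made. The sets differ, as the 33 are the strongest peak of each member and the 4118 are all optimal peaks within 500 bp of a TSS, weaker second peaks included.

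In the 100 bases before the first TSS, the window printed above, TATCGATA was found at 9 of 33 members with a peak (27.3%) and 2 of 19 without (10.5%), the latter being eEF1delta and eIF4B. Over all protein-coding genes it was at 12.4% of those with a peak and 2.65% of those without. CGATA was at 18 of 33 (54.5%) and 7 of 19 (36.8%), against 43.7% and 19.3%. GGTCACAC was at 2 of 33, eIF2alpha and eIF2Bepsilon (6.06%), and 0 of 19, against 6.51% and 1.00%. CTTTT is 1 form of the TCT start site known from ribosomal protein genes. It lay within 10 bp of a TSS on the sense strand at 3 of 52 members (5.77%, against 4.57% of all genes). These were eIF3f1, eIF3i and eIF4A, and no elongation factor had this form. It was the only form sought at start sites, so other forms of the element were not covered.

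Other translation genes were listed by function, and 31 of 33 names matched the annotation. Of these, 23 (74.2%, Wilson 95% interval 56.8 to 86.3%) had a promoter peak, against 36.5% of all protein-coding genes. The list named for partners of the cap and the poly(A) tail had 8 of 9, and kra, an eIF5-like protein, was also placed in it. It was led by bel, an RNA helicase, with 963 and relative signals of 5.37, 5.75 and 6.09. Next was kra with 422, whose summit also lay within 500 bp of a TSS of SecS. Thor, the fly 4E-BP that binds eIF4E, had none. The release factors eRF1 (171) and eRF3 (99.5) and the recycling factor pix (142) each had a peak, and the eIF2alpha kinases Gcn2 and PEK had 162 and 155. Of 7 hypusine and diphthamide enzymes, 5 had a peak, among them Dhps (134) and nero (120), which modify eEF5; the 5850 counted for Dph4 lay at RpL13A and Spec2 as well. Mitochondrial translation factors had 4 of 8, with 206 at mEFTs the highest. None of the other translation genes but Dph4 reached the signal of eEF2.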

How the data were processed

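ChIP-seq of Ets97D fused to GFP was measured in 3 biological replicates of whole embryos, numbered as in the labels. Per the file headers, which are text deposited beside the lists, each replicate has a narrowPeak list of peaks and background derived from its alignment and a control, the pooled list was derived from all replicates, and the optimal IDR thresholded set from these lists. The signal (column 7) is the authors' deposited value per region; its scale is unstated, and the caller (like the aligner and IDR threshold) is not given in the sources used here. With no read counts, depth is unknown. Coordinates are dm6, and dm3 lists were not used.

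Gene models were Ensembl release 115 on Release 6, with the NCBI genome of the same assembly; 18 protein-coding genes outside the 7 chromosome arms were left out. Summits are start plus offset, 1-based. A member's peak is its strongest with a summit within 500 bp of any TSS of a protein-coding transcript; words were sought within 50 bp of summits. The optimal set equals the top 5595 of the pooled list by signal. The members, lists, words and tests were chosen with earlier results of these data known. Values in every replicate were given for the 8 members of strongest peak, elongation factors and germline paralogs; other replicate values, and the split of the elongation factors, were picked after their values were seen. Of 33 other translation genes listed, GCN1 and Dph6 had no unique match.

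Alternatives were other windows, nearest TSS only, the stronger part of the peaks (above their median), single replicates and leaving each out. Procedures were tested on simulated data. Scripts ran under Python 3.11.15; tables used pandas 2.3.3 and NumPy 2.4.6, intervals SciPy 1.17.1, and figures matplotlib 3.10.9.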

Additional observations from a re-analysis of the deposited data

How the results depend on the processing

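The count of members with a promoter peak was 33, and between 24 (peaks above the median signal) and 35 (window of 1000 bp) under its alternatives, above the share of all genes in each. For these counts, leaving out 1 replicate kept the optimal peaks, still from all 3, that had a strongest-region summit in both other replicates. This can only lower the 33, and gave 27 to 29 members, 20 to 23 initiation factors and 4 elongation factors. The 27 to 29 are also the members whose peak both remaining replicates share, which cannot be fewer than the 26 of all 3. They are thus 1 result and no call without a replicate. When only the gene of the nearest TSS was counted for a summit, 28 members kept a peak, and eIF2Bdelta, eIF2Bepsilon, eIF3a, eIF3l and eIF4E6 lost theirs. Among genes with any pooled region, the shares were 78.6% of members and 61.9% of all genes. Germline paralogs with a peak fell from 2 to 1 (eIF4G2) with the nearest TSS only, with the peaks above the median signal and in replicate 3 alone; leaving out 1 replicate gave 1 to 2, since eIF4E6 was lost without replicate 1 and without replicate 2. The ratio of elongation to initiation medians, 17.3, was 15.5 in replicate 3 alone, 12.6 with a window of 1000 bp, 15.9 with the nearest TSS only, 14.6 over members with any pooled region and 19.2 over peaks with no other gene within 500 bp. Leaving out 1 replicate gave 16.4 to 17.0. Over all 6 elongation and 34 initiation factors it was 10.7, and without eIF1 it was 17.4. Both were chosen after seeing the data. With eEF1alpha2 and eEFSec added to the 6, the 10.7 would be lower. Divided by the median of the full lists instead, relative signals were higher, as at eEF1gamma with 118. In windows of 25 bp either side of the summit, TATCGATA was at 5 member peaks (15.2%, against 4.61% of all promoter peaks), CGATA at 10 (30.3%, against 22.9%) and GGTCACAC at 1 (3.03%, against 3.91%). No paired analysis was possible because there is 1 group, so replicate numbers pair no samples between groups; genes were compared within each replicate. The cause of these shifts was not tested. Unknown depth limits what an unlisted promoter shows: no region does not mean no binding.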
